A study of Mus musculus with 77 samples.

Results

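Broad H3K27ac domains of naive B cells are long, unbroken stretches of chromatin that carry the acetyl mark in unstimulated CD23+ B cells of the spleen. They were taken from the H3K27ac peak lists of mb1-cre WT cells at 0 h. Autosomal bases under peaks in at least 2 of those 3 lists were joined where they lay 1 bp or less apart, and joined regions of 20 kb or more were kept. This left 811 domains of 4420 joined regions. They held 29.7 of 65.4 Mb, which is 18.3% of the regions and 45.4% of the bases. The domains were thus selected on their width and on their coverage in those 3 lists, and both are given as a description without a test.

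The study used CUT&RUN, an assay that cuts out and sequences DNA near an antibody's target, on B cells of female mice with or without a floxed Xist. Xist is the RNA that coats the inactive X chromosome. The 77 libraries cover H3K27ac, H2AK119Ub and H3K27me3 in 24 groups of 3, except that H3K27me3 in the mb1-cre system has 4 Xist fl/fl and 4 WT libraries at 24 h, and 5 Xist fl/fl and 4 WT libraries at 0 h. In the mb1-cre system both genotypes, Xist fl/fl and WT, carry mb1-cre, in which the Cd79a (mb-1) locus drives Cre in the B lineage of the animal. In the TAT-Cre system, for which the labels name no Cre transgene, cells of either genotype were given 80 µg of the cell-permeable recombinase TAT-Cre for 45 min in culture. Cells of 24 h had been cultured with CpG at 1 µM, which activates B cells through Toll-like receptor 9, and cells of 0 h were unstimulated. Only the cultured cells received TAT-Cre per the labels. At 0 h the Xist fl/fl cells of that system are therefore a baseline with Xist undeleted, and CpG, culture and TAT-Cre cannot be told apart in it. CpG and culture cannot be told apart in the mb1-cre system either. Mouse ages and any pooling of animals are not given here. Replicates are named biological, with no word on separate animals, and the p-values below measure the spread between these libraries.

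H3K27ac is placed by the acetyltransferases p300 and CBP at active promoters and enhancers. Stretches where enhancers lie so close together that the mark becomes continuous are known as super-enhancers or broad domains, and in many cell types they lie over the genes that set that cell's identity. H2AK119Ub is placed by Polycomb repressive complex 1 and H3K27me3 by Polycomb repressive complex 2, and both are known mainly from silent developmental genes, although H2AK119Ub also occurs at lower density elsewhere. H3K27me3 and H3K27ac sit on the same lysine and cannot occupy the same histone tail.

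The domains had a median width of 29.6 kb. Of the 811, 415 were 20 to 30 kb wide, 273 were 30 to 50 kb, 103 were 50 to 100 kb and 20 were 100 kb or more. The narrowest inside the limit lay over Samhd1 (20000 bp), Cep43 (20007 bp) and Clint1 (20028 bp), and the widest outside it lay over Tor1aip1 (19976 bp), Gm11462 (19902 bp) and Heg1 (19900 bp). The limit therefore cut through a continuous range of widths. By the RefSeq gene bodies of GRCm38.p6, the assembly that mm10 names, 747 domains met a protein-coding gene, 48 met only other genes and 16 met none. Exons and introns were not assigned, because the table used here gives gene bodies. A domain met 1 coding gene in 575 cases, 3 or more in 44, and 6 at most.

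The widest domain, 207.8 kb at chr4:32211216-32419058, lay over Bach2, a repressor that holds back the plasma cell programme. In all, 3 domains met Bach2 and 4 met Foxp1, a regulator of follicular B cell survival, of which the widest measured 162.5 kb (chr6:98975424-99137927) and 127.3 kb (chr6:99160541-99287798). Next came Fchsd2, a regulator of membrane and actin shape (164.5 kb), Man1a, a Golgi mannosidase (158.8 kb), Ankrd11, a chromatin regulator (146.1 kb), and Mbnl1, a splicing regulator (145.1 kb). Bcl11a, a zinc-finger factor needed for B cell development, lay under a domain of 137.8 kb (chr11:24071189-24209018), and Bank1, a scaffold of B cell receptor signalling, under 129.7 kb (chr3:136202456-136332117). A domain of 124.9 kb at chr17:34233163-34358051 spanned the MHC class II genes H2-Ob, H2-Ab1, H2-Aa, H2-Eb1 and H2-Eb2 together with Btnl2. Cyrib, which regulates Rac and actin, had 124.9 kb, Cyth1, an exchange factor for Arf proteins, 121.7 kb, and the receptor-proximal kinase Lyn 115.8 kb (chr4:3675214-3791046). The 15 widest ended with 1110059E24Rik (114.0 kb) and the transcription factor gene Mef2c (111.2 kb, chr13:83515717-83626944).

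The promoters of 6 of these genes are printed as examples. They were chosen from the widest domains that carry a gene of the lists described below, so they do not stand for all the widest domains. Each is the 300 bases around 1 annotated start (250 before, 50 after) from RefSeq on GRCm38.p6, read 5′ to 3′ on the strand of the gene, and each start lies in its domain. Capitals mark matches to 6 short motifs, searched on both strands. The octamer was searched as ATGCAAAT, the PU.1 type ETS motif as GAGGAAGT, the NF-kB motif as GGGNNTTCC, the E-box of E proteins as CAGGTG, the cyclic AMP response element (CRE) as TGACGTCA and the TATA box as TATAAA.
Bach2 promoter: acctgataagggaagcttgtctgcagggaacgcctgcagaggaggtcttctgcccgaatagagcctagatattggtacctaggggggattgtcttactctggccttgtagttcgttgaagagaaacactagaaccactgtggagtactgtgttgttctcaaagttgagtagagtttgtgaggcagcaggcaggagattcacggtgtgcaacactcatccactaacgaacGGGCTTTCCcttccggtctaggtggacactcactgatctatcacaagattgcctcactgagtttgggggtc
Foxp1 promoter: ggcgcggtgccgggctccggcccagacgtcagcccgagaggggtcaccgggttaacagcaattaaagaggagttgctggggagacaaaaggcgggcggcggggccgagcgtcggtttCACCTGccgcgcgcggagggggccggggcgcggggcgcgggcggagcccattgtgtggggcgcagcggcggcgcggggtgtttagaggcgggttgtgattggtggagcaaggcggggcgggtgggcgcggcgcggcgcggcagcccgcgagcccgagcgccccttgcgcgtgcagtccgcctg
Bcl11a promoter: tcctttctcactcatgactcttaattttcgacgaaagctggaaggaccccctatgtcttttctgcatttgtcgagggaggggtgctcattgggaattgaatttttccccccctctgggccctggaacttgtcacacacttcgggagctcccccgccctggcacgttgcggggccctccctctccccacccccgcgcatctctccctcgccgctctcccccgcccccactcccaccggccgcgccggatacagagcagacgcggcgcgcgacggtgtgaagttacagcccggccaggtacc
Bank1 promoter: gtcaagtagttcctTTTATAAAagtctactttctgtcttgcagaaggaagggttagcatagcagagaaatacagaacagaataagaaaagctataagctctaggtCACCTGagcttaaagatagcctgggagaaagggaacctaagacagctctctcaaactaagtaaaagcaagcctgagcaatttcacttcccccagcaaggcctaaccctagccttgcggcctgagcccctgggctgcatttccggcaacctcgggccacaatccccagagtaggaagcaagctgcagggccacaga
H2-Aa promoter: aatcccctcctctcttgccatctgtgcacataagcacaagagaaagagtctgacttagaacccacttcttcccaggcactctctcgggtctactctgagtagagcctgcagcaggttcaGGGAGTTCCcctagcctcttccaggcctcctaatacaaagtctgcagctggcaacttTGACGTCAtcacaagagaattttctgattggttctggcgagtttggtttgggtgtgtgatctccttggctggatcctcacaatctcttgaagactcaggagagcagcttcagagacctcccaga
Mef2c promoter: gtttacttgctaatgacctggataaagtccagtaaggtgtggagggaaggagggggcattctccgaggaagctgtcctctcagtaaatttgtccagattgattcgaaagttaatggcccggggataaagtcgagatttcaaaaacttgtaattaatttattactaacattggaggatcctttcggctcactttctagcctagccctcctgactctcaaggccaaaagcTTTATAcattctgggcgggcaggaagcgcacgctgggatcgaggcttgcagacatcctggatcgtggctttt

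The Bach2 entry (chr4:32417185-32417484, plus strand) holds an NF-kB match from base 230. The Foxp1 entry (chr6:99028249-99028548, minus strand), 1 of 3 in the table, is 75.3% G and C and holds an E-box match on the opposite strand from base 118. The Bcl11a entry (chr11:24080445-24080744, plus strand) holds none of the 6 motifs. The Bank1 entry (chr3:136326017-136326316, minus strand) has overlapping TATA matches on both strands from bases 15 and 17. It also has an E-box match on the opposite strand from base 106. The H2-Aa entry (chr17:34287774-34288073, minus strand) has an NF-kB match from base 120 and a CRE from base 177, and the Mef2c entry (chr13:83523406-83523705, plus strand), 1 of 3, has a TATA match on the opposite strand from base 229. These are matches of letters, and binding was not measured.

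Over all domains outside chromosome 18, for which the promoter table holds no entry, 544 of 790 (68.9%) contained an annotated start site, against 47.2% of the regions of 10 to 20 kb and 46.3% of those under 10 kb. Per length the order was the other way, with 0.334 start sites per 10 kb of domain, 0.553 in regions of 10 to 20 kb and 1.01 in regions under 10 kb. Of the 967 promoters in domains, 7.14% held the PU.1 type ETS motif, against 3.25% of all 31396 autosomal promoters in the table. PU.1 is an ETS factor of the B and myeloid lineages. The NF-kB motif was in 7.86% against 5.91%, the octamer in 2.17% against 1.75%, the E-box in 18.9% against 20.5%, the CRE in 1.96% against 1.83% and the TATA motif in 8.89% against 13.6%. The median promoter in a domain was 58.7% G and C, against 53.0% over all promoters, and its ratio of observed to expected CpG was 0.614 against 0.389. These shares are descriptions. Promoters in regions of 10 to 20 kb were much like those in domains, with the PU.1 type ETS motif in 5.87%, the NF-kB motif in 7.59%, the TATA motif in 8.31%, a median of 61.3% G and C and a CpG ratio of 0.736.

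The domains lay over many of the genes that define a B cell. Of 20665 autosomal coding genes, 913 (4.42%) met a domain. Of genes of B cell receptor and coreceptor signalling, 23 of 25 did, among them Cd79a and Cd79b, the signalling chains of the receptor, the inhibitory receptor Cd22, and Syk, Blnk and Plcg2 of the signalling cascade. Of follicular surface and homing genes 17 of 22 did, including Fcer2a, which encodes CD23 itself, Ms4a1 (CD20) and Cxcr5. Of antigen presentation genes 10 of 14 did, and of B cell transcription factors 20 of 30, including Pax5, Ebf1, Ikzf1, Foxo1 and Irf8. The NF-kB pathway followed with 10 of 19, genes of quiescence with 7 of 18 and B cell activation genes with 9 of 35. H3K27ac regions of any width met all 25 receptor signalling genes, 21 of 22 follicular genes and all 14 antigen presentation genes. They also met all 30 transcription factor genes, all 19 NF-kB genes, 16 of 18 quiescence genes and 21 of 35 activation genes. Over all autosomal coding genes that share was 17.5%. For these lists, lying under H3K27ac was thus not particular to the broad domains.

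No plasma cell gene of 11, no myeloid marker of 18, no NK cell marker of 10, no erythroid marker of 8 and no developmental Polycomb target of 30 met a domain. Among T cell markers 1 of 20 did, Trac, which lies in the domain led by its neighbour Dad1. Of 13 housekeeping genes, Ywhaz did. H3K27ac regions of any width met 4 of the 11 plasma cell genes and 7 of the 13 housekeeping genes. They also met 1 myeloid and 1 erythroid marker, but no NK cell marker and no developmental Polycomb target. Genes that define B cells (Ms4a1, Cd79a, Pax5) and the sorting marker CD23 thus lay under domains. Long genes meet wide regions more readily. The coding genes under a domain had a median length of 40.6 kb, against 17.5 kb for all, and the transcription factor list had 104 kb, while the follicular and antigen presentation lists had 13.4 kb each. These counts describe where the domains lie and were not tested. The gene lists used here and below were chosen with earlier results of these data known.

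**Figure D1:**
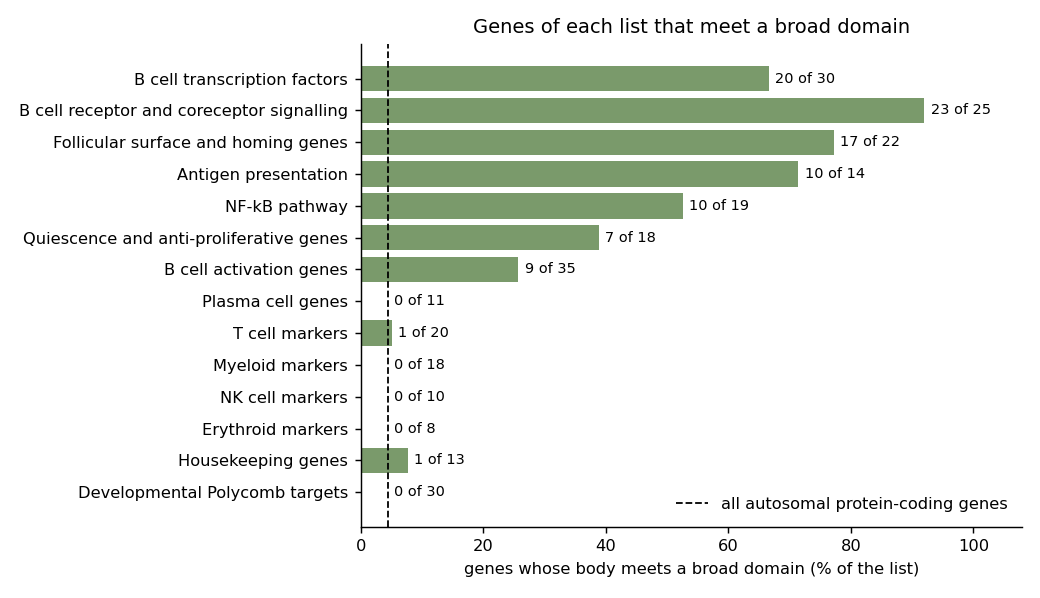
Share of each gene list, in percent of its autosomal genes, whose body meets a broad H3K27ac domain of mb1-cre WT cells at 0 h, with the counts beside the bars and a dashed line at the 4.42% of all autosomal coding genes. The B cell lists reach between 25.7% and 92.0%, while plasma cell, myeloid, NK cell, erythroid and Polycomb target genes stand at 0.

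Peak lists were of uneven length, which bears on every value below. H3K27ac lists held 3605 to 9933 autosomal peaks at 24 h and 1303 to 10104 at 0 h, H2AK119Ub lists 9236 to 34592 at 24 h and 1967 to 39096 at 0 h, and H3K27me3 lists 3884 to 14285 at 24 h and 1941 to 18370 at 0 h. The depth of the libraries is unknown here, so depth and list length cannot be told apart and no counting error is given. Values are the percent of a domain's bases under peaks of a library. A domain at 0% had no called peak, which is not the absence of the mark.

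The domains were found again in the 21 H3K27ac libraries that had no part in choosing them. Every library covered at least 45.9% of the domain bases, and 556 of 811 domains had a peak in all 21. Coverage of 50% or more was reached in all 21 libraries by 220 domains and in all, or all but 1, by 317. Another 50 domains were under 50% in 11 or more of those libraries, so that not all of the 811 are broad elsewhere.

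Group means were higher in the mb1-cre system than in the TAT-Cre system at each time and genotype, a difference that was not tested. Replicates 1 to 3 of mb1-cre Xist fl/fl covered 87.7%, 84.7% and 93.6% of the domain bases at 24 h and 80.4%, 79.1% and 89.2% at 0 h. In mb1-cre WT cells they covered 89.4%, 89.0% and 90.9% at 24 h, and 97.5%, 86.9% and 97.9% at 0 h in the lists that chose them. In TAT-Cre Xist fl/fl cells the values were 65.1%, 54.1% and 73.6% at 24 h and 53.9%, 60.9% and 53.2% at 0 h. In TAT-Cre WT cells they were 85.3%, 73.7% and 85.9% at 24 h and 82.3%, 45.9% and 72.1% at 0 h. The times overlapped in each of the 4 strata of system and genotype. There were 2 TAT-Cre libraries of 0 h that stood out. WT replicate 2 had the lowest coverage of all, and Xist fl/fl replicate 2 had the longest list, in which a covered domain was split into 2.65 peaks on average.

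**Figure D2:**
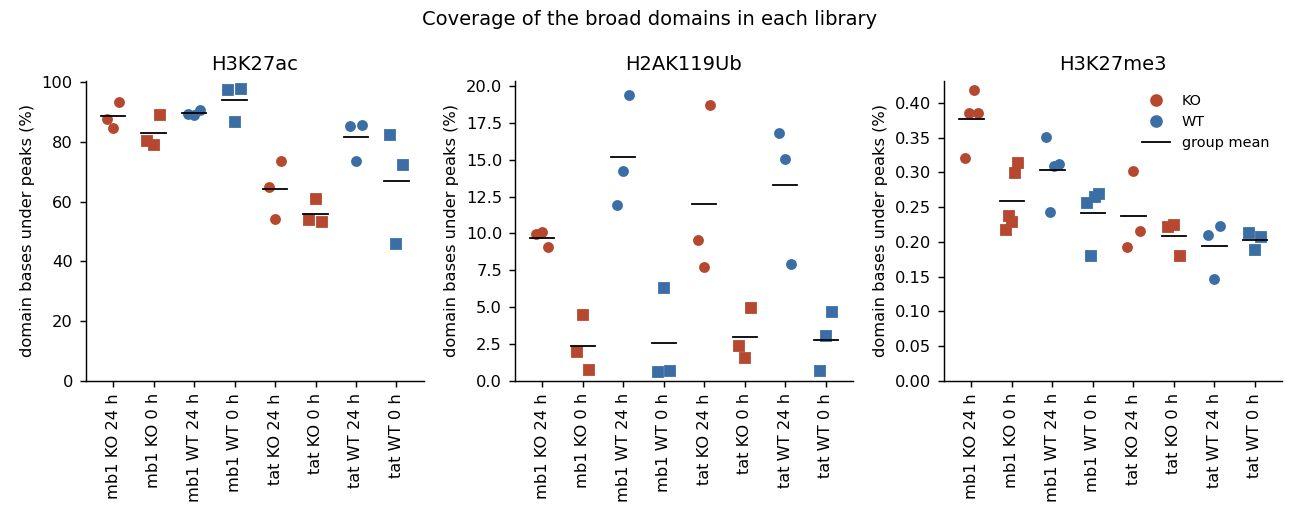
Percent of all domain bases under peaks in each library, 1 panel a mark with its own scale from 0; circles are 24 h, squares 0 h, red Xist fl/fl (KO), blue WT, and bars the group means. H3K27ac covers most domain bases in every group, H2AK119Ub reaches 7.72% to 19.4% at 24 h and stays at or under 6.29% at 0 h, and H3K27me3 stays at or under 0.418%.

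After 24 h with CpG, H3K27ac covered more of some domains and less of a few. The comparison used mb1-cre Xist fl/fl, TAT-Cre Xist fl/fl and TAT-Cre WT libraries (9 at 24 h, 9 at 0 h) and left out mb1-cre WT, whose 0 h lists chose the domains. By limma with Benjamini-Hochberg adjustment over 4365 regions, 129 of 811 domains (15.9%) were higher at 24 h and 15 (1.85%) were lower at an adjusted p under 0.05. Among all regions tested 22% were higher and 2.2% lower, so neither share of the domains lay above that of regions at large. The median difference over domains was 8.61 percentage points, against 16.2 over all regions. With each library's signal scaled to its own total, the direction turned round: 28 domains were higher and 229 lower, with a median of -0.23 on the log2 scale over domains and 1.06 over all regions. On that scale 15.5% of all regions were higher and 13.1% lower. The share of a library's peak signal that fell in domains was 32.7% to 51.8% at 24 h and 40.6% to 63.8% at 0 h. With lists cut to equal length 132 of 771 domains were higher and 78 lower, beside 20.8% and 17.0% of all regions. The medians were then 4.94 points over domains and 4.54 over all regions, so the smaller difference of the domains held only for lists as deposited and for signal shares. Without TAT-Cre Xist fl/fl cells 59 were higher and 13 lower, and the share of all regions without those cells is not given here. A direction for the domains as a whole thus depends on the scale, and the domains named next are read on the coverage scale.

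Among the domains with the smallest p, that of Kmt2a, a histone H3 lysine 4 methyltransferase, covered 61.0%, 84.5% and 100% (lowest, median and highest) at 24 h, against 0%, 41.4% and 55.2% at 0 h. The times did not overlap, and the difference was 55.0 points (SE 7.85, limma adjusted p = 0.000187). Cflar, whose product c-FLIP blocks death-receptor signalling to caspase-8, stood at 82.8%, 100% and 100% at 24 h and at 0%, 56.8% and 63.9% at 0 h, again without overlap (53.5 points, SE 8.76, limma adjusted p = 0.000583). Bcl2a1b, of the anti-apoptotic Bcl-2 family, had 84.1%, 91.6% and 100% at 24 h and 51.6%, 59.6% and 87.1% at 0 h (31.5 points, limma adjusted p = 0.000394). The times overlapped there by 1 library of 0 h, the difference turned to -0.12 when signal was scaled to the library total, and near-identical copies of this gene make its reads uncertain. Skil, a repressor of TGF-beta signalling, and Ppp3cc, a catalytic subunit of calcineurin, were higher by 54.2 and 28.9 points. N4bp2l2, Kcmf1 and Arhgap45, a GTPase-activating protein, were higher by 53.8, 44.7 and 57.3 points. In 6 of these 8, all but Bcl2a1b and Ppp3cc, 2 or more of the 0 h libraries of the TAT-Cre system had no peak at all.

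Of the 15 domains that were lower, 9 lay over no coding gene and 6 over a coding gene. Of the 64 domains over no coding gene 9 were lower and 2 higher, and of the 747 over a coding gene 6 were lower and 127 higher. This split was not tested, and the shares over all regions without a coding gene were not computed. Of the 8 lower domains with the smallest p, 3 stood in a row on chromosome 13. They lay at and beside the long non-coding gene Gm33073, 585, 454 and 412 kb from Mef2c, the nearest coding gene. The first, of 28.3 kb (chr13:82890238-82918571), covered 28.1%, 25.8% and 66.8% in the mb1-cre Xist fl/fl libraries of 24 h, against 97.3%, 89.8% and 97.3% at 0 h. It covered 0% in all 3 TAT-Cre Xist fl/fl libraries at 24 h, against 49.5%, 76.3% and 91.8% at 0 h, and 43.8%, 0% and 67.5% in TAT-Cre WT cells at 24 h, against 94.1%, 96.8% and 77.1% at 0 h. Within each of the 3 strata the times did not overlap. Over all of them the domain fell by 59.8 points (SE 9.02, limma adjusted p = 0.000296). The mb1-cre WT cells, which were not in the fit, had 22.6%, 0% and 0% at 24 h. Their 0 h values, 94.5%, 100% and 95.7%, come from the lists that chose the domains and were high by selection. The other domains beside Gm33073, of 34.1 and 39.7 kb, fell by 36.2 and 25.8 points (limma adjusted p = 0.00177 and 0.00354). The Mef2c domain itself differed by -1.61 points (SE 5.92, limma adjusted p = 0.860).

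Armc9, a gene of cilia, fell by 49.4 points (SE 10.2, limma adjusted p = 0.00276), with 21.2%, 26.7% and 93.6% at 24 h, against 78.5%, 87.4% and 100% at 0 h. Only 2 of the 9 libraries of 24 h reached the 0 h range, mb1-cre Xist fl/fl replicate 3 and TAT-Cre WT replicate 3, and all 3 mb1-cre WT libraries at 24 h, outside the fit, were also high at 83.4% to 87.8%. Tmem163, a zinc transporter, fell by 41.4 points, and 1700113H08Rik fell by 43.9 points. The domain at Gm51701, 2.20 kb from the chemokine receptor gene Ccr1, fell by 34.0 points, and that at Gm20091, 191 kb from the anti-proliferative gene Btg1, fell by 28.5 points.

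**Figure D3:**
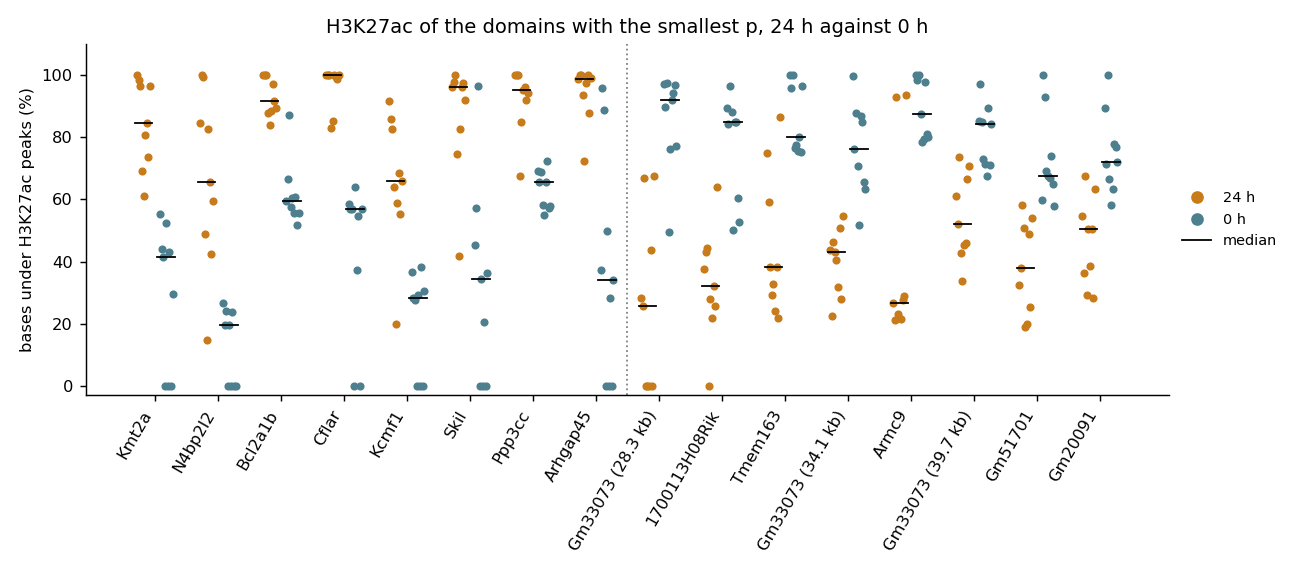
Percent of bases under H3K27ac peaks in the 16 domains with the smallest p, 8 higher (left of the dotted line) and 8 lower, at 24 h (orange) and at 0 h (blue-green), with 1 point for each of the 9 libraries at a time and bars at the medians. In Kmt2a and Cflar every 24 h library lies above every 0 h library, and in the 28.3 kb Gm33073 domain the median is 25.8% at 24 h and 91.8% at 0 h.

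The calls are read by role against the 15.9% of all domains and 22% of all regions that were higher. Shares of the transcription factor and receptor signalling lists lay near these. Of 31 domains over B cell transcription factor genes 5 were higher and none lower, namely over Foxp1 (162.5 kb; 24.1 points, limma adjusted p = 0.0292), Pax5 (17.5 points, 0.0337), Fli1 (18.6 points, 0.0285), Ikzf3 (22.6 points, 0.0352) and a second domain of Bach2. The widest Bach2 domain had 98.5%, 98.3% and 99.8% in the mb1-cre Xist fl/fl libraries of 24 h, against 99.8%, 98.8% and 99.2% at 0 h, and did not pass the test (13.5 points, SE 6.56, limma adjusted p = 0.134). Of 29 domains of B cell receptor signalling 5 were higher, over Lyn, Pik3ap1, Prkcb, Pik3cd and Cd79a, and none was lower. Lyn and Pik3ap1 were higher by 18.3 and 18.2 points, and turned to -0.10 and -0.08 on the scale of signal shares. Of 11 NF-kB domains 4 were higher, among them those over Nfkb1, which encodes p105 and p50 (26.4 points, limma adjusted p = 0.00389), the inhibitor gene Nfkbie (34.5 points, 0.00591) and Traf3 (29.6 points, 0.0146). Traf3 also turned, to -0.36, on the scale of signal shares. None of 17 follicular, 8 antigen presentation or 7 quiescence domains was called, and of 8 activation domains 2 were higher, over Bcl2a1b and the cell cycle kinase gene Cdk6. Genes beyond the 6 widest of a list and outside the smallest p are named after their values were seen.

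H2AK119Ub gave the plainest difference between the times. Its peaks covered 7.72% to 19.4% of the domain bases at 24 h (median 10.999%) and 0.605% to 6.29% at 0 h (median 2.14%), in 12 libraries each. The ranges did not overlap, although the longest of all lists, mb1-cre WT replicate 2 at 0 h with 39096 peaks, was a 0 h list. A peak touched 288 to 596 domains at 24 h and 15 to 402 at 0 h. In every library coverage was lowest in the domains and higher in narrower regions, with 18.8% to 37.9% at 24 h and 1.81% to 24.9% at 0 h in regions under 10 kb. By limma over 3529 regions, 347 of the 679 domains that could be tested (51.1%) were higher at 24 h and 4 (0.589%) were lower, against 45.1% and 1.16% among all regions tested. The other 132 domains had peaks in too few libraries. The median difference was 8.08 points over domains and 14.1 over all regions, an order that turned on the scale of signal shares (2.41 over domains and 1.76 over all regions, log2). There were 4 lists of 0 h with under 3000 peaks, and without them 216 domains were higher and 7 lower. The share of all regions without those lists is not given here, so these counts cannot be set against regions at large. On the scale of signal shares 420 were higher and 6 lower, with 50.7% of all regions higher and 1.64% lower.

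Among the 8 domains with the smallest p were those of TNF family cytokines and of early response genes. The domain of 41.0 kb at chr17:35181988-35222996 meets Lst1, Ltb, Tnf, Lta and Nfkbil1, of which Tnf, Lta and Ltb encode cytokines of the TNF family. H2AK119Ub covered 58.4%, 81.4% and 52.6% of it in the mb1-cre Xist fl/fl libraries of 24 h and 93.2%, 82.1% and 85.5% in mb1-cre WT cells at 24 h. In the TAT-Cre system it covered 41.2%, 44.7% and 71.1% in Xist fl/fl and 78.3%, 72.1% and 52.2% in WT cells at 24 h. At 0 h 10 of 12 libraries had no peak there, and the others had 9.79% (mb1-cre WT) and 4.56% (TAT-Cre Xist fl/fl). The difference was 66.5 points (SE 4.56, limma adjusted p = 2.27e-09). The same Lst1 domain stayed under H3K27ac at both times, at 63.8% to 94.6% at 24 h, against 58.1% to 99.7% at 0 h.

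Nr4a1, an orphan nuclear receptor induced by antigen receptor signals, had 40.1%, 71.6% and 100% (lowest, median and highest) at 24 h, against 0%, 0% and 13.5% at 0 h (70.2 points, SE 5.64, limma adjusted p = 7.63e-09). The domain over Pebp4 and Egr3, a zinc-finger factor of the same early response, had 34.9%, 76.8% and 100% at 24 h and 0%, 0% and 13.3% at 0 h (71.7 points, limma adjusted p = 4.25e-09). Txnip, an inhibitor of thioredoxin and of glucose uptake, had 45.9%, 70.6% and 100% at 24 h and 0%, 0.826% and 21.2% at 0 h (66.9 points, limma adjusted p = 6.36e-09). In each of these domains every 24 h library lay above every 0 h library. The same held for Midn (57.0 points), which targets nuclear proteins for degradation, for Irf2bpl (64.4 points), for Cxxc5 (60.1 points), a CXXC zinc-finger gene, and for the domain over Scn4a, Cd79b and Gh (60.3 points).

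Of the 4 domains that were lower, the one at chr6:68970425-68993218 in the immunoglobulin kappa locus stood apart. It holds the variable gene segments Igkv13-82 and Igkv4-81. In the kappa (Igk) domain H2AK119Ub covered 0% in all 3 mb1-cre Xist fl/fl libraries at 24 h, against 89.1%, 87.3% and 100% at 0 h, and 0%, 12.2% and 0% in mb1-cre WT cells at 24 h, against 100% in all 3 at 0 h. In the TAT-Cre system it covered 0%, 0% and 14.7% in Xist fl/fl cells at 24 h, against 85.0%, 15.3% and 96.5% at 0 h, and 25.9%, 0% and 10.9% in WT cells at 24 h, against 100%, 90.5% and 94.5% at 0 h. The ranges of the times met in a single pair, at 25.9% and 15.3%, and the domain fell by 82.9 points (SE 6.88, limma adjusted p = 1.11e-08). H3K27ac of the Igk domain covered 63.9% to 99.8% at 24 h, against 43.6% to 100% at 0 h (8.37 points, limma adjusted p = 0.333). Variable segments have close copies that can share reads, so the position of these values within the locus is uncertain. A domain of 33.1 kb in the lambda locus (Igl) had 0%, 0% and 14.0% at 24 h, against 5.87%, 8.83% and 34.9% at 0 h (-11.4 points, limma adjusted p = 0.00757). Bcl2a1b fell by 15.1 points and Lmbrd1, a lysosomal transporter of cobalamin, by 7.76 points, with no peak in any 24 h library of Lmbrd1.

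**Figure D4:**
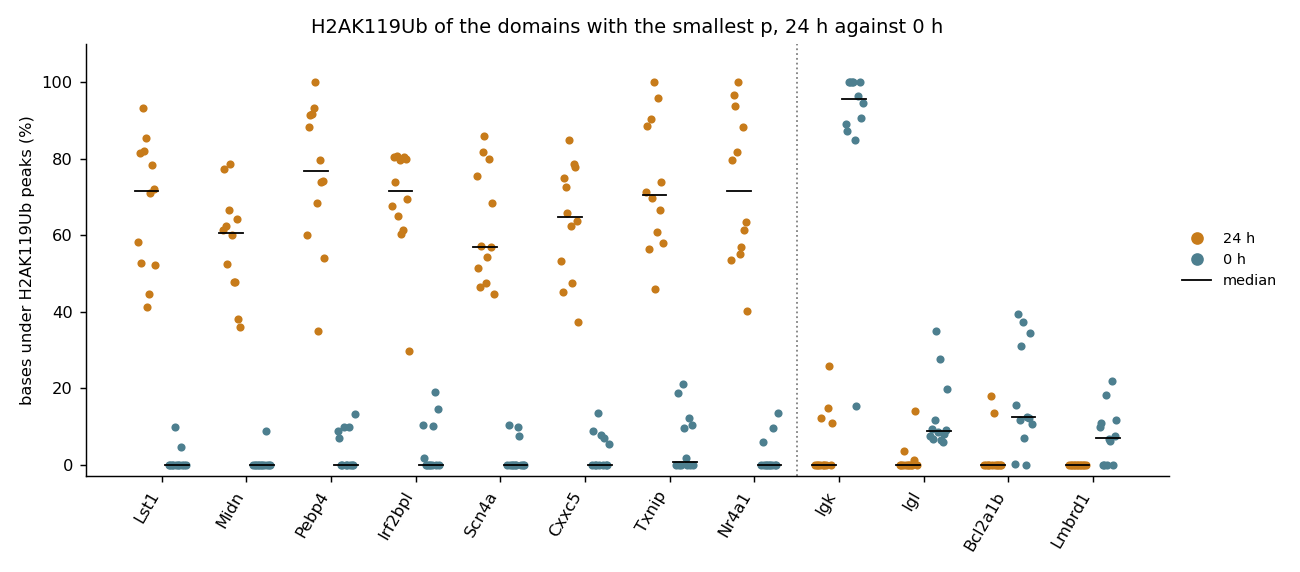
Percent of bases under H2AK119Ub peaks in the 8 domains that were higher with the smallest p (left of the dotted line) and in the 4 that were lower, at 24 h (orange) and at 0 h (blue-green), with 1 point for each of the 12 libraries at a time and bars at the medians. All 8 on the left separate the times completely, and the Igk domain has medians of 0% at 24 h and 95.5% at 0 h.

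Across the gene lists H2AK119Ub was higher at 24 h in 7 of 7 quiescence domains, in 12 of 16 follicular, 15 of 22 B cell receptor, 14 of 22 transcription factor, 5 of 7 antigen presentation, 6 of 8 activation and 4 of 9 NF-kB domains that could be tested, and lower only at Bcl2a1b. The share was 51.1% over all domains tested and 45.1% over all regions, and differences of the lists from it were not tested. The lists also differ in width from the domains at large. Quiescence domains were 20.9 to 30.9 kb wide. Of all tested domains of 20 to 30 kb 55.5% were higher, with a median difference of 11.96 points. Median differences were 27.7 points for quiescence, 34.5 for activation, 19.9 for follicular, 11.8 for receptor signalling, 10.5 for antigen presentation, 7.75 for transcription factors and 5.83 for NF-kB, beside 8.08 for all domains. Among quiescence genes the anti-proliferative Btg2 stood at 34.7% to 100% in the 24 h libraries, against 0% to 26.8% at 0 h, without overlap (55.4 points, SE 5.54, limma adjusted p = 1.24e-07). Klf3, a repressor of the Krüppel-like family, was higher by 49.3 points, Pdcd4, an inhibitor of translation, by 33.7, Zfp36l1, which destabilises mRNA, by 27.7 and the cell cycle inhibitor gene Cdkn1b by 23.1. Rb1 was higher by 14.4 points. Without the 4 short lists Cdkn1b and Rb1 missed the threshold (limma adjusted p = 0.110 and 0.117), with differences of 15.97 and 12.7 points. Other members were Irf8 (59.1 points, limma adjusted p = 2.46e-08), Tnfrsf13c, which encodes the BAFF receptor (57.7 points), Ccr7 (41.5 points), H2-DMa (36.5 points) and Irf4 (26.3 points). Fcer2a (-0.422 points), Ms4a1 (5.05 points), Blnk (5.49 points) and Ptprc (0.646 points) did not pass.

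As a percent of their bases, the widest domains gained the least H2AK119Ub. Of the domains of 20 to 30 kb 55.5% were higher, of 30 to 50 kb 49.4%, of 50 to 100 kb 44.7% and of 100 kb or more 4 of 17 (23.5%), and the medians were 11.96, 6.77, 5.06 and 1.51 points. The median widths of these classes were 23.9, 37.0, 61.7 and 124.9 kb. A percentage point therefore stands for more bases in a wider domain, and the percents do not rank the classes by bases gained. The differences between width classes were not tested. The Bach2 domain had 6.95%, 0% and 5.63% in the mb1-cre Xist fl/fl libraries of 24 h, 7.47%, 13.0% and 9.08% in mb1-cre WT cells, 5.19%, 1.16% and 8.23% in TAT-Cre Xist fl/fl cells and 8.46%, 9.24% and 3.17% in TAT-Cre WT cells. At 0 h the Bach2 domain had a peak in 1 of 12 libraries, of 1.67% (6.32 points, SE 1.87, limma adjusted p = 0.00910). Bcl11a was higher by 13.3 points (limma adjusted p = 0.000521), the MHC class II domain of H2-Eb2 by 10.5 (0.00260) and Cyth1 by 9.61 (0.00776). Bank1 had no H2AK119Ub peak in any of 24 libraries, and the 162.5 kb Foxp1 domain had 1 in 2 libraries of 24 h and in no library of 0 h. Without the 4 short lists Bach2 and Cyth1 missed the threshold (limma adjusted p = 0.0853 and 0.0717), with differences of 5.85 and 8.64 points.

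Within domains H2AK119Ub covered a larger share of the bases near start sites than of those away from them. The bases within 1 kb of an annotated start made up 5.50% of the domain bases outside chromosome 18. Of these, 21.9% to 41.3% were under H2AK119Ub peaks at 24 h (median 28.1%), against 6.77% to 18.04% of the other domain bases (median 10.0%). At 0 h it was 1.21% to 14.9% near starts and 0.584% to 5.75% away from them. Coverage near starts was the higher in 12 of 12 libraries at each time. H3K27ac also covered bases near starts more in 12 of 12 libraries at each time. Its medians were 93.8% near and 85.3% away at 24 h, against 86.5% near and 79.5% away at 0 h. The 0 h libraries include the mb1-cre WT lists that chose the domains, where near-full coverage follows from that choice. The point of highest H3K27ac signal in a domain lay a median of 9956 to 11724 bp from the nearest start, depending on the library. It lay within 1 kb of a start in 14.5% to 23.5% of domains. The 23.5% came from a list that chose the domains, and outside mb1-cre WT the 0 h libraries reached 20.9% at most.

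The calls of H3K27ac and H2AK119Ub overlapped in part. Of the 679 domains tested for both, 305 were called for H2AK119Ub alone, 69 for H3K27ac alone, 46 for both and 259 for neither. Of the 100 domains with higher H3K27ac that could be tested for H2AK119Ub, 37 were also higher in H2AK119Ub, and of the 15 with lower H3K27ac 8 were, beside 51.1% of all 679. Another 302 domains were higher in H2AK119Ub with no H3K27ac call. Differences between these shares were not tested. Arhgap45 was higher in both marks (31.2 points of H2AK119Ub, limma adjusted p = 0.000120), and Armc9 lower in H3K27ac and higher in H2AK119Ub by 22.7 points (limma adjusted p = 0.00166). Bcl2a1b was higher in H3K27ac, except on the scale of signal shares, and lower in H2AK119Ub. Peaks of bulk libraries do not show whether both marks sat on the same alleles or cells, and a change in the share of cells and a change per cell cannot be told apart.

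**Figure D5:**
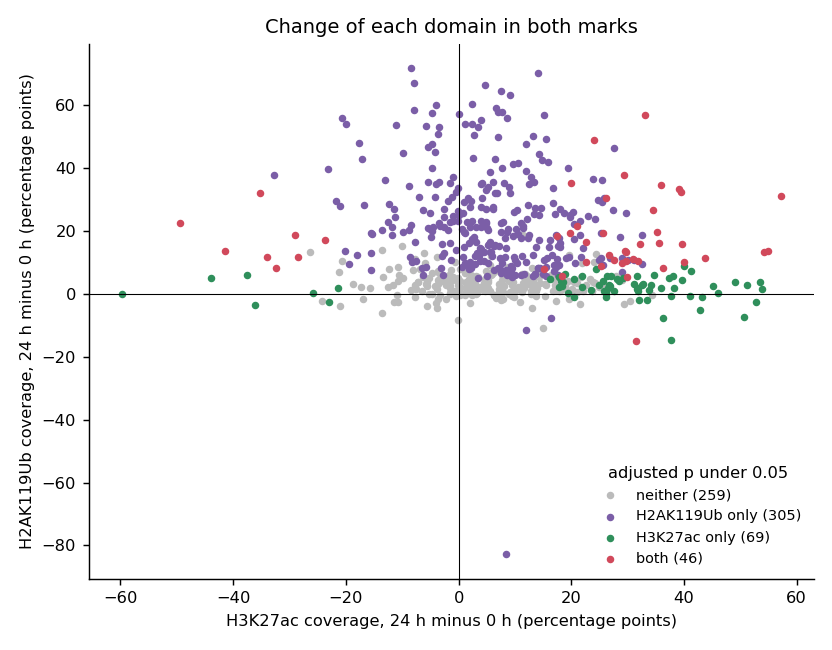
Difference in H3K27ac coverage (horizontal) and in H2AK119Ub coverage (vertical), 24 h minus 0 h in percentage points, for the 679 domains tested for both marks, coloured by which mark passed an adjusted p under 0.05. Most points lie above 0 on the vertical axis over a broad range of H3K27ac differences, and the lone point near -83 is the Igk domain.

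H3K27me3 peaks were scarce in the domains. They covered 0.147% to 0.418% of domain bases at 24 h and 0.179% to 0.314% at 0 h, and 773 of 811 domains had no H3K27me3 peak in any of 29 libraries. Only 26 domains had peaks in enough libraries for the test over time, and 1 was higher and none lower by limma, beside 1.13% and 0.565% of all 177 regions tested. That domain (chr6:47651836-47686885) meets 6 predicted coding genes led by Gm40365 and the small RNA gene Rn4.5s. H3K27me3 of the Gm40365 domain was 41.0%, 47.9%, 59.3% and 46.4% in the mb1-cre Xist fl/fl libraries of 24 h, 54.5%, 0%, 52.5% and 30.5% in mb1-cre WT cells, 18.5%, 59.7% and 0% in TAT-Cre Xist fl/fl cells and 0% in all 3 TAT-Cre WT libraries. It was 0% in all 15 libraries at 0 h (29.9 points, limma adjusted p = 0.00485). The Gm40365 domain was also under H2AK119Ub at 97.8% or more in all 24 libraries, and its H3K27ac ranged from 0% to 100% at each time. Whether reads of this domain can be placed uniquely was not tested, so its values in all 3 marks are uncertain.

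There were 9 domains with an H3K27me3 peak in 15 or more of the 29 libraries, and these were picked out after their values were seen. The region of chr9:3000001-3038345, whose nearest annotated gene is Mir101c, was at 99.9% or more in H3K27me3 in 29 of 29 libraries, in H3K27ac in 24 of 24 and in H2AK119Ub in 23 of 24. All 3 marks were thus called there in nearly every library. Whether reads of this region can be placed uniquely was not tested, so its values in all 3 marks are uncertain. The region is counted as a domain, with 38.3 kb of the 29.7 Mb of domain bases. In every library it was the only domain at 90% or more in H3K27me3. The H3K27me3 coverage of domain bases, 0.147% to 0.418%, thus includes this region in every library. Sfi1 had 0%, 67.0% and 68.9% (lowest, median and highest) at 24 h and 0%, 66.3% and 68.9% at 0 h. Unique placement of reads was not tested for the Sfi1 domain either, so these values are uncertain too. Hjurp, the chaperone of the centromeric histone, had 0%, 17.7% and 46.0% at 24 h, against 15.7%, 18.04% and 26.4% at 0 h. The others, at medians of 7.38% or less at both times, lay at Ctsc, Zfp292, Cxcr4, Gm21811, Ppp2r2a and Pcf11.

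No domain passed the test between genotypes in any mark. At 24 h, the H3K27ac comparison set 6 Xist fl/fl libraries against 6 WT libraries of both systems. By limma 0 of 811 domains were higher and 0 lower, as among all regions tested (0% and 0%), while 89 had an unadjusted p under 0.05 and 103 had one by an exact permutation test of the libraries, of which 0 passed adjustment. Coverage was lower in Xist fl/fl libraries in 771 of 811 domains, with a median of -8.53 points, against -9.54 over all regions, and the median turned to 0.12 on the scale of signal shares. The TAT-Cre libraries lay apart here: Xist fl/fl cells covered 54.1% to 73.6% of domain bases at 24 h and WT cells 73.7% to 85.9%. In the mb1-cre system Xist fl/fl cells covered 84.7% to 93.6% and WT cells 89.0% to 90.9%. The TAT-Cre cells at 0 h, where Xist was still in place, covered 53.2% to 60.9% in Xist fl/fl and 45.9% to 82.3% in WT cells. The lists of TAT-Cre Xist fl/fl cells at 24 h held 4637 peaks on average and those of WT cells 7445. With lists cut to equal length the median was -8.00 points over 725 domains and -6.46 over all regions, with 0 domains higher and 0 lower.

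For H2AK119Ub 9 Xist fl/fl libraries were set against 9 WT libraries, and 0 of 656 domains were higher and 0 lower (0% and 0% of all regions), with 15 at an unadjusted p under 0.05 by limma and 23 by exact permutation. For H3K27me3 0 of 23 were higher and 0 lower (0% and 0% of all regions), with 0 at an unadjusted p under 0.05 by limma and 1 by exact permutation. A p that misses the threshold does not show that the genotypes were alike at a domain. The response of H3K27ac to 24 h with CpG was also compared between Xist fl/fl cells of the TAT-Cre and the mb1-cre system. Of 811 domains 0 were higher and 0 lower by limma, beside 0.163% and 0.747% of all 4283 regions, with 19 at an unadjusted p under 0.05 and a smallest adjusted p of 0.0510. Leaving out TAT-Cre Xist fl/fl replicate 2 at 0 h, the library with the longest list, gave 12 higher and 2 lower. Deletion in the animal or in culture, TAT-Cre protein and system cannot be told apart in it.

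The domains also held 30 miRNA genes in 26 domains, of which 26 had a mature sequence in the RefSeq table of GRCm38.p6. Those of the miRNAs best known from lymphocytes, of a pair from 1 cluster and of miR-7a-5p are printed. Capitals mark the seed, bases 2 to 8.
mmu-miR-142a-5p: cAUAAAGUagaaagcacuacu
mmu-miR-142a-3p: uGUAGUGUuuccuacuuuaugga
mmu-miR-142b: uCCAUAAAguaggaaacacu
mmu-miR-21a-5p: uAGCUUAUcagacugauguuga
mmu-miR-141-3p: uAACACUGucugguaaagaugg
mmu-miR-200c-3p: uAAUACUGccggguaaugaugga
mmu-miR-7a-5p: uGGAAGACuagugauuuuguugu

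The miR-142 gene, whose products are abundant in blood cells, lay in the 33.3 kb domain of Tspoap1, where H2AK119Ub was higher at 24 h by 30.4 points (limma adjusted p = 3.26e-06) and H3K27ac differed by 4.09 points (limma adjusted p = 0.666). miR-142b is read from the opposite strand of the same locus. miR-21a, which is induced by activation in many cells, lay in the 21.6 kb Vmp1 domain, where H3K27ac was higher by 17.8 points (limma adjusted p = 0.0499) and H2AK119Ub differed by 5.52 points (limma adjusted p = 0.337). miR-141 and miR-200c, known from epithelial cells, lay in the 27.1 kb domain of Ptpn6, which encodes the phosphatase SHP-1, where H2AK119Ub was higher by 25.4 points (limma adjusted p = 0.00143). The miR-7a-5p gene Mir7-1 lay in the 22.1 kb domain of Hnrnpk. Neither mark shows whether these miRNAs were made.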

How the data were processed

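Peak lists of 77 CUT&RUN libraries were used. The submitters' processing notes name Trimmomatic 0.32, Bowtie2 2.3.4.1, Picard, deepTools 3.5.1 and the mm10 build. Each deposited list gives positions, a total signal and a highest signal for each peak; the signal is the authors' value, and nothing shows that lists share a scale. Antibody amounts per the labels were 1.5 µg (H2AK119Ub) and 3 µg (the other marks), with yeast spike-in DNA. Settings and controls of the peak caller, and read depth, are not given here.

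For each of the 4420 regions the percent of bases under a library's peaks was computed. Regions were tested if 3 or more libraries had a peak and the values were not all equal, with limma 3.58.1 (R 4.3.3) with system and genotype, or system and time, as strata, Benjamini-Hochberg adjustment over all regions tested of a comparison and a threshold of 0.05. Exact two-sided permutations of libraries within strata served as another test. The fit was tested on simulated data and recovered only part of the regions that were shifted there. A label conflicts: replicate 5 of H3K27me3 in mb1-cre Xist fl/fl at 0 h is titled naive, its treatment entry says stimulated, and the title was followed.

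Named domains are the 15 widest, the 8 with the smallest p in each direction of a test, those beside the 20 kb limit, and up to 6 genes of each list. The domains and lists were chosen with earlier results of these data known. Alternatives were signal shares in ppm on a log2 scale with 1 added, lists cut to the shortest of a mark, no filter, a replicate block, each library left out, replicate 5 at 24 h, and other rules of membership. Leaving out the H2AK119Ub lists under 3000 peaks, or the TAT-Cre Xist fl/fl stratum, was chosen after seeing the data. Promoters of chromosome 18 are not used here. Some members of the gene lists are counted but not reported by name here.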

Additional observations from a re-analysis of the deposited data

Results flagged for a closer look

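Groups of 4 or more libraries were searched for a library far from the others of its group, in 12 combinations of group and measure. In any single combination with values that differ, chance flags a library about 1 time in 20. Over the 12 combinations 1 library was flagged, which is not a clear excess. The measures included H3K27me3 coverage of the Gm40365 domain, which was 0% in all libraries at 0 h. Those combinations of 0 h could not flag a library. Among the 4 H3K27me3 libraries of mb1-cre WT cells at 0 h, the lowest covered 0.1791% of the domain bases, and the gap to the next was most of the range of the group.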

How the results depend on the processing

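Taking bases in all 3 lists gave 537 domains in place of 811, and leaving out each list gave 577 to 722. Over time, H3K27ac calls moved most with scale: signal shares gave 28 higher and 229 lower, equal list lengths 132 and 78, and leaving out the TAT-Cre Xist fl/fl stratum 59 higher. Leaving out each library gave 76 to 177 higher and 13 to 27 lower; it was 76 without TAT-Cre Xist fl/fl 24 h replicate 3, 78 without TAT-Cre WT 24 h replicate 1, and 27 lower without TAT-Cre WT 0 h replicate 2. Of 25 named H3K27ac calls, Lyn (log2 value -0.1034), Bcl2a1b (-0.1208), Pik3ap1 (-0.08363) and Traf3 (-0.3627) reversed on signal shares; 9 others missed the threshold there. H2AK119Ub calls over time were 37 higher and 3 lower of 82 tested with equal lengths, beside 42.6% and 10.6% of all regions. They were 216 higher and 7 lower without the short lists, and 318 to 364 higher and 4 lower without each library. Shares of all regions when lists, libraries or the stratum were left out are not given here. H3K27me3 gave 1 to 2 higher without each library (2 without mb1-cre WT 24 h replicate 2, mb1-cre Xist fl/fl 24 h replicate 1, TAT-Cre WT 24 h replicate 2, TAT-Cre Xist fl/fl 0 h replicate 1 or 24 h replicate 3), 2 higher and 1 lower on signal shares and 0 with equal lengths. Genotype counts stayed at 0 without each library, except 1 lower for H3K27ac without mb1-cre Xist fl/fl 24 h replicate 3. The comparison of systems gave 16 higher and 9 lower with equal lengths, 1 lower on signal shares, and 0 to 12 higher and 0 to 2 lower without each library. The causes were not tested. Replicate numbers are shared between groups, but deviations of same-numbered libraries correlated at -0.074 to 0.092 for H3K27ac and -0.049 to 0.057 for H2AK119Ub over time, and between genotypes at -0.011 to 0.027 for H3K27ac, -0.096 to 0.415 for H2AK119Ub (2 of 9 pairs over 0.1) and -0.167 to 0.455 for H3K27me3 (5 of 11), with -0.327 to 0.255 for H3K27me3 over time (7 of 14). In no comparison were all pairs over 0.1, so the numbers were not taken as pairs; with a replicate block 105 and 18 H3K27ac and 318 and 4 H2AK119Ub domains were called over time, and 0 between genotypes. Unknown read depth limits every value given as 0%.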
